A study of Sus scrofa with 30 samples.

Results

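The 4 libraries described here hold the chromatin of pig (Sus scrofa) oocytes arrested at metaphase of the second meiotic division, the MII oocyte: 2 libraries of histone H3 trimethylated on lysine 4 (H3K4me3) and 2 of histone H3 trimethylated on lysine 27 (H3K27me3). They were taken by their titles from a series of 30 libraries that follows both marks through in vitro fertilised embryos. Both marks were profiled by ultra-low-input native ChIP-seq, in which chromatin from small numbers of cells is cut by a nuclease without cross-linking and precipitated with an antibody. The labels give no genotype, strain, age or treatment for these oocytes, and do not say whether the 2 libraries of a mark came from separate oocyte collections, so spreads below are those between libraries. Each library is known here as a list of broad peaks called by the authors, and only positions on chromosomes 1 to 18 were used. A base or a gene was taken to have a mark when both libraries of that mark held it, to lack it when neither did, and to be undecided when 1 of the 2 did. The question was how much of the genome, and which coding gene ends, had both marks, H3K4me3 only or H3K27me3 only, and how the marks lay within the domains that they share.

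H3K4me3 is laid down by the KMT2 and SETD1 methyltransferases and is best known from the starts of active or poised genes, while in mammalian oocytes it also spreads into wide domains away from promoters. H3K27me3 is written by Polycomb repressive complex 2 through EZH1 or EZH2 and marks silenced developmental genes. Promoters with both marks, called bivalent in embryonic stem cells, often belong to transcription factors that set cell fate. In the mouse, H3K27me3 inherited from the oocyte keeps the maternal allele of a few genes silent in the embryo. Peaks called in bulk libraries show that both marks occur at a place in the pool of oocytes, not that they sit on the same nucleosome, allele or cell.

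The H3K4me3 libraries held 73242 and 97246 peaks and the H3K27me3 libraries 48261 and 51680. Read totals are not in the peak lists, so the depth is unknown. A guide to it, the caller's background recovered from the deposited fold and p-value pairs, was 0.957 and 1.36 reads per position for H3K4me3 and 0.977 and 0.626 for H3K27me3. The library with the higher background had more peaks for H3K4me3 and fewer for H3K27me3. It covered more length for both marks (97.5 against 61.0 Mb for H3K4me3, 69.0 against 59.7 Mb for H3K27me3). The part of depth in the values below was not tested. The H3K4me3 peaks were weak by the caller's own measure: peaks with a −log10 q value of 2 or more covered 1.90 Mb of 61.0 Mb in replicate 1 and 22.4 Mb of 97.5 Mb in replicate 2. The same limit kept 42.6 Mb of 69.0 Mb and 27.5 Mb of 59.7 Mb in the H3K27me3 libraries. Of 11 oocyte markers, 6 had H3K4me3 at a gene end in both libraries (GDF9, ZP3, FIGLA, NLRP5, MOS and ZAR1), 3 in 1 library and 2 in neither (ZP2 and NOBOX), and none had H3K27me3 in both. Of 8 matched cumulus and granulosa markers, 4 had H3K4me3 in both libraries. FSHR and CYP19A1 had no peak within 5 kb of an end in any library. Over all coding genes, 56.9% had H3K4me3 in both libraries and 11.3% had H3K27me3 in both. The H3K4me3 counts of both marker lists were near the share of all genes and do not set oocyte markers apart. Within 5 kb of gene ends, H3K4me3 summed to 13752 and 20270 bp over the 11 oocyte markers. Over the 8 cumulus and granulosa markers it summed to 8004 and 15423 bp. The lists differ in size, so these sums do not compare the markers gene for gene. Of 4 matched sperm markers, PRM1 and PRM2 had no peak there in any library. ACR had both marks in both libraries (1805 and 4419 bp of H3K4me3, 2786 and 1475 bp of H3K27me3), and TNP1 had H3K27me3 in both (4267 and 3099 bp) and H3K4me3 in 1.

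H3K4me3 covered 61.0 Mb in replicate 1 and 97.5 Mb in replicate 2, or 79.3 ± 25.8 Mb (SD, n = 2). H3K27me3 covered 69.0 and 59.7 Mb, or 64.3 ± 6.54 Mb (SD, n = 2). The ranges overlapped, since H3K4me3 replicate 1 lay between the H3K27me3 libraries, and the difference of 0.27 in the mean log2 length was not called (exact permutation test, two-sided, p = 0.667, adjusted p = 0.667 over 3 measures). The direction of that difference turned without H3K4me3 replicate 2 (log2 difference −0.072) and with peaks of −log10 q of 2 or more (−2.39).

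Wide peaks and distal positions made up more of the length in both H3K27me3 libraries than in either H3K4me3 library. Peaks of 5 kb or more carried 1.86% and 5.94% of the H3K4me3 length against 30.9% and 22.5% of the H3K27me3 length. The share lying over 5 kb from every coding gene end was 68.1% and 68.8% for H3K4me3 and 83.2% in each H3K27me3 library. H3K4me3 was lower by 22.8 percentage points in wide peaks, with a mean of 3.90 ± 2.89% against 26.7 ± 5.94% (SD, n = 2 each), and lower by 14.8 points in distal length, with a mean of 68.4 ± 0.476% against 83.2 ± 0.0526%. Each comparison gave p = 0.333 and an adjusted p of 0.5 in the exact permutation test (two-sided), and 0.333 is the smallest p that 2 against 2 allows.

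The H3K4me3 libraries shared 31.4 Mb, which was 0.247 of the 127 Mb covered by either, and the H3K27me3 libraries shared 37.1 Mb, 0.406 of 91.5 Mb. Of the length so agreed, 8.39 Mb had both marks, 19.01 Mb had H3K4me3 only and 14.7 Mb had H3K27me3 only. Both marks therefore lay on 26.7% of the H3K4me3 length and on 22.6% of the H3K27me3 length. A further 12.8% of the H3K4me3 length and 37.8% of the H3K27me3 length had the other mark in 1 library and was undecided. The shared length was 16.3 times the 0.515 Mb that the product of the covered shares of the genome would give. Taking 1 library of each mark, the 4 combinations shared 14.8 to 26.1 Mb, which was 23.8% to 27.2% of the H3K4me3 length, 24.1% to 38.9% of the H3K27me3 length and 8.78 to 9.22 times the product. All of these lengths rest on weak H3K4me3 peaks: with −log10 q of 2 or more in all 4 libraries, 0.241 Mb had both marks and 0.336 Mb had H3K4me3 only, while H3K27me3 only stood at 17.6 Mb. Without H3K4me3 replicate 1 the length with both marks was 18.7 Mb and that with H3K4me3 only 66.9 Mb, and without H3K4me3 replicate 2 the latter was 41.7 Mb. H3K27me3 only stood at 25.1 Mb without H3K4me3 replicate 2, at 31.5 Mb without H3K27me3 replicate 1 and at 37.2 Mb without H3K27me3 replicate 2.

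**Figure D1:**
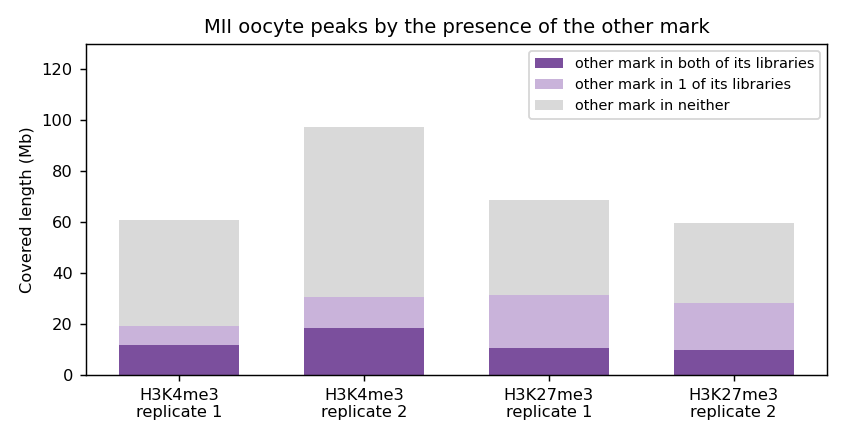
Length covered by peaks in each MII oocyte library (Mb, 1 bar per library), split by whether the other mark was present in both of its libraries, in 1 or in neither. The other mark in both libraries took 12.1 and 18.7 Mb of the H3K4me3 bars and 10.9 and 9.88 Mb of the H3K27me3 bars, and the part with the other mark in neither was the longest part of every bar.

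In each library the part of the peaks that met the other mark was a minority. Bases with H3K27me3 in both libraries made up 19.8% and 19.2% of the H3K4me3 libraries, and bases with H3K4me3 in both made up 15.9% and 16.5% of the H3K27me3 libraries. Peaks that lay on the other mark were wider and slightly higher than those away from it. In H3K4me3 replicate 2, peaks with 50% or more of their length under H3K27me3 had a median width of 1100 bp and a median fold over background, as the authors' caller gave it, of 3.38. Peaks without H3K27me3 in either library had 642 bp and 3.25. In H3K27me3 replicate 2 the matching medians were 851.5 bp and 3.55 on H3K4me3 against 436 bp and 3.25 away from it.

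The overlap was larger in wider peaks in every library. H3K27me3 covered 68.8% and 63.5% (replicates 1 and 2) of the length of H3K4me3 peaks of 5 kb or more in replicate 1, and 62.0% and 55.9% in replicate 2. In H3K4me3 peaks under 1 kb it covered 18.7% and 16.6%, and 14.9% and 13.2%. H3K4me3 in turn covered 34.8% and 54.2% of H3K27me3 peaks of 5 kb or more in replicate 1 and 37.5% and 58.3% in replicate 2, against 11.8% and 18.7%, and 12.5% and 20.5%, of those under 1 kb. The wide class held only 171 and 840 H3K4me3 peaks but 2326 and 1559 H3K27me3 peaks.

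The stretches of each class were short. Both marks lay together in 13127 stretches with a median of 437 bp, H3K4me3 only in 36299 with a median of 391 bp and H3K27me3 only in 26684 with a median of 396 bp. The longest with both marks, at SUSD4, ran for 42386 bp. That place was not particular to the oocyte or to a mark. Peaks of each of the 24 libraries from MII oocyte to blastocyst covered 31132 to 42495 bp of the 42495 bp there. The longest with a single mark ran for 6436 bp (H3K4me3) and 6157 bp (H3K27me3). The classes fell in different parts of the gene map. Windows within 1 kb of a coding gene end make up 2.99% of the genome and held 26.4% of the length with H3K4me3 only, 8.80% of the length with both marks and 3.98% of that with H3K27me3 only. Conversely, 53.4% of the H3K4me3-only length, 74.0% of the both-mark length and 86.1% of the H3K27me3-only length lay over 5 kb from every coding gene end. Within coding gene bodies beyond the end windows lay 48.9% of the both-mark length, 35.4% of H3K4me3 only and 42.5% of H3K27me3 only. Relative to the product of the covered shares, the overlap was 3.66 times at gene ends, 20.01 times in gene bodies, 11.5 times in the flanks from 1 to 5 kb and 19.2 times farther out. High coverage limits this ratio, and H3K4me3 covered 9.12% of the gene end windows against 1.21% of the gene bodies. In the same order, 33.3%, 24.3%, 26.6% and 19.02% of the H3K27me3 length had H3K4me3, the most at gene ends. Of the H3K4me3 length, 11.95%, 32.4%, 20.5% and 29.7% had H3K27me3, the least at gene ends.

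Both marks gathered near the ends of the chromosomes. The outer 5 Mb of the 18 chromosomes make up 7.94% of the genome and hold 10.7% of coding genes, yet 59.9% of the length with both marks lay there. The share was 47.8% for H3K27me3 only and 19.6% for H3K4me3 only. It was alike between replicates, at 28.1% and 28.2% of all H3K4me3 length and 43.1% and 43.6% of all H3K27me3 length. In these outer parts 48.3% of the H3K4me3 length had H3K27me3, against 16.0% elsewhere, while the share of H3K27me3 length with H3K4me3 was 24.6% against 20.1%. Relative to the product of the covered shares computed within each part, the overlap was 4.26 times near the ends and 19.9 times elsewhere. By chromosome, both marks covered from 0.172% of chromosome 13 to 0.660% of chromosome 12. Base composition and mappability were not examined, so their part in this placement was not tested.

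At coding gene ends, the classes were counted for 18722 genes of the RefSeq table of Sscrofa11.1, where a mark counted if its peak touched a window reaching 1 kb to each side of an end. The table gives no strand, so starts and stops of genes were treated alike. Both marks stood at 1694 genes (9.05%), H3K4me3 only at 8017 (42.8%) and H3K27me3 only at 106 (0.566%). Neither mark was found at 3853 genes (20.6%), and 5052 (27%) were undecided. Library by library, H3K4me3 met 11370 and 13724 genes and H3K27me3 met 3040 and 2803.

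In the lists as called, most genes with H3K27me3 also had H3K4me3, and this no longer held with stricter peaks. Of the 2120 genes with H3K27me3 in both libraries (11.3%), 79.9% had H3K4me3 in both, 320 had it in 1 and 106 had it in neither. H3K4me3 in both libraries was found at 53.5% of the 14999 genes without H3K27me3 in either library and at 10661 genes (56.9%) of all. With −log10 q of 2 or more, 36 genes had both marks against 494 with H3K27me3 only. In the same-numbered pairs, H3K4me3 then stood at 5.39% and 47.5% of H3K27me3 genes (95 of 1764 and 583 of 1228). H3K4me3 was fewer over all 18722 coding genes too, at 737 and 5584 against 11370 and 13724 in the lists as called. Read the other way, in the lists as called 15.9% of the H3K4me3 genes had H3K27me3. The marks stood at the same gene end in 1493 (88.1%) of the both-mark genes and at both ends in 347 (20.5%). They shared bases within the end windows in 1202 (71.0%). Over all both-mark genes, those without shared bases included, the median was 284 bp at the end that shared more.

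Genes with both marks held more of each mark than genes with 1 mark. For each library, the end window of a gene that held more of the mark was taken. There H3K4me3 covered a median of 887.5 and 1273.5 bp (replicates 1 and 2) of a both-mark gene and 753 and 1005 bp of an H3K4me3-only gene. H3K27me3 covered 1348 and 1164 bp of a both-mark gene and 598 and 438.5 bp of an H3K27me3-only gene. The H3K27me3-only genes were also shorter, with a median length of 9089 bp against 18927 bp for both marks and 25763 bp for H3K4me3 only. Genes near chromosome ends made up 29.4% of the both-mark genes (498 genes), beside 10.7% of all coding genes. They made up 8.76% of the H3K4me3-only genes, 9.43% of the H3K27me3-only genes (10 genes) and 7.55% of those with neither mark. The gene counts carry the same limit as the lengths: with −log10 q of 2 or more there were 36 genes with both marks, 280 with H3K4me3 only and 494 with H3K27me3 only, and with 50% of a window covered there were 357, 2016 and 172. The count of H3K27me3-only genes was 385 without H3K4me3 replicate 2, 236 without H3K27me3 replicate 1 and 306 without H3K27me3 replicate 2.

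**Figure D2:**
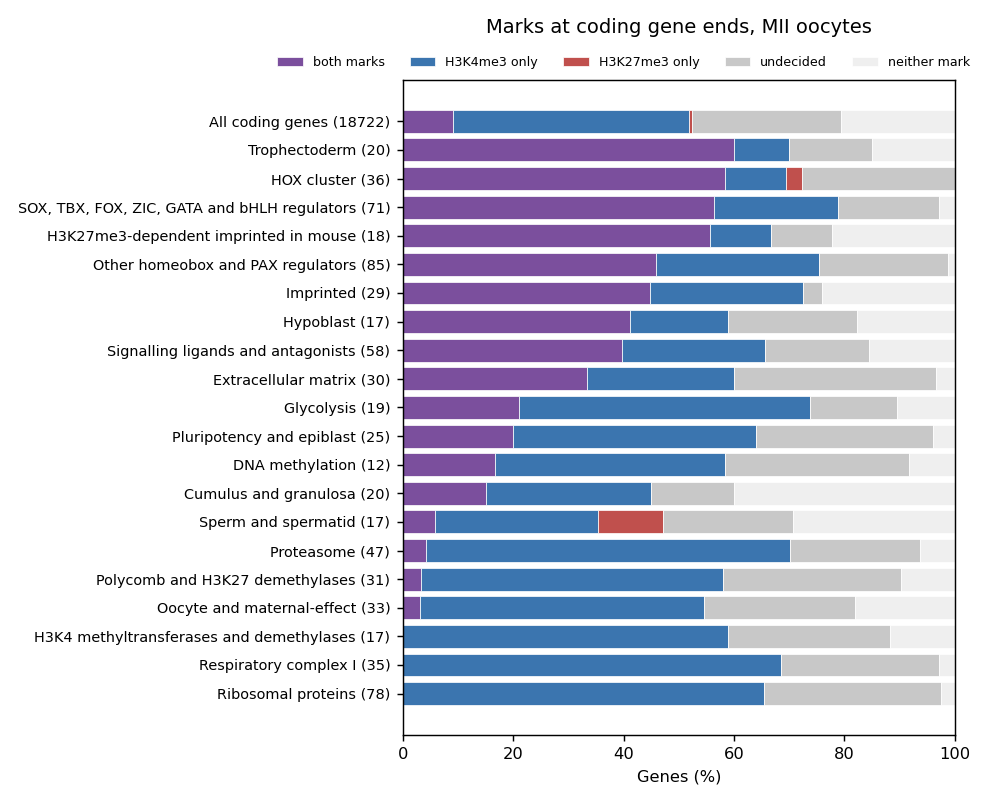
Share of the coding genes in each list (percent, number of matched genes in brackets) with both marks, H3K4me3 only, H3K27me3 only, an undecided state or neither mark at their ends in MII oocytes. The bar of all coding genes has 9.05% with both marks. Trophectoderm and HOX genes lie at the top, and ribosomal proteins, respiratory complex I and the H3K4 enzymes, with none, at the bottom.

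In 4 lists of developmental regulators and ligands, among the 20 gene lists examined, between 39.7% and 58.3% of genes had both marks. Of 36 HOX genes, which give segments of the body axis their identity, 21 had both marks, 4 had H3K4me3 only, 1 had H3K27me3 only (HOXC8) and 10 were undecided. Of 85 other homeobox and PAX genes 39 had both marks and 25 had H3K4me3 only. Of 71 SOX, TBX, FOX, ZIC, GATA and bHLH genes 40 had both and 16 had H3K4me3 only. Of 58 signalling ligands and antagonists 23 had both (among them SHH, WNT3A, FGF8 and NOG), 15 had H3K4me3 only and 9 had neither (among them NODAL and LEFTY2). These counts are read against 9.05% of all coding genes with both marks, 42.8% with H3K4me3 only and 20.6% with neither. The lists overlap and were chosen with earlier results of these data known.

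The HOXA cluster was the most fully covered of the 4 HOX clusters by H3K4me3 and by both marks. Over chr18:45373340-45480306 (11 genes), H3K4me3 covered 28.4% and 44.2% and H3K27me3 34.0% and 30.5% in replicates 1 and 2, with 13728 bp under both marks. HOXB on chromosome 12 had 7636 bp and HOXC on chromosome 5 had 6419 bp under both marks. HOXD on chromosome 15 had the least H3K27me3, with 14.5% and 10.5% covered, and 2633 bp under both marks against 7407 bp with H3K4me3 only. The HOXD genes split by position, since HOXD11, HOXD12 and HOXD13 had both marks while HOXD1, HOXD3 and HOXD8 had H3K4me3 only.

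Each list of early lineage genes was mixed, and the lists were not tested against each other. Of 20 trophectoderm genes, active in the layer that forms the placenta, 12 (60%) had both marks and 2 had H3K4me3 only, beside 9.05% and 42.8% of all coding genes. CDX2, a homeobox factor of that layer (chr11:5339727-5346081), had 6773 and 9242 bp of H3K4me3 and 6640 and 7803 bp of H3K27me3 within 5 kb of its ends. GATA3, a zinc finger factor of the same layer (chr10:63367684-63397977), had 5127 and 10085 bp of H3K4me3 and 14389 and 17120 bp of H3K27me3. EOMES, TFAP2A, TFAP2C, HAND1 and the keratins KRT8, KRT18 and KRT19 also had both marks, and TEAD4 was undecided, with H3K4me3 in replicate 1 only (1966 bp) and no H3K27me3.

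Of 17 hypoblast genes, those of the primitive endoderm, 7 (41.2%) had both marks and 3 (17.6%) had H3K4me3 only. Over all coding genes these shares were 9.05% and 42.8%. GATA6 (chr6:107282709-107314725) had 7265 and 12000 bp of H3K4me3 and 6804 and 6952 bp of H3K27me3 within 5 kb, while its relative GATA4 (chr14:14858470-14938156) had 3157 and 2815 bp of H3K4me3 and no H3K27me3. SOX17 and FOXA2 had both marks. Of 25 pluripotency and epiblast genes, 5 (20%) had both marks (PRDM14, TFAP2C, UTF1, TBX3 and OTX2), 11 (44%) had H3K4me3 only and 8 (32%) were undecided. The H3K4me3-only and undecided shares were near the 42.8% and 27% of all coding genes. POU5F1, the OCT4 gene (chr7:23564654-23570691), had 1638 and 3545 bp of H3K4me3 and SOX2 (chr13:119668476-119669435) had 2454 and 2840 bp, both without H3K27me3 within 5 kb in either library. NANOG was undecided, with 234 and 2613 bp of H3K4me3 and 1257 and 0 bp of H3K27me3.

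Of 33 oocyte and maternal-effect genes 17 (51.5%) had H3K4me3 only, 6 had neither mark and 1 had both (OTX2), against 42.8%, 20.6% and 9.05% of all coding genes. H3K27me3 was found in neither library at 30 of them. GDF9, a growth factor that the oocyte secretes (chr2:135181494-135184451), had 1798 and 2764 bp of H3K4me3 within 5 kb. The zona pellucida gene ZP3 had 2434 and 4173 bp and the maternal-effect gene NLRP5 had 3295 and 4375 bp, and all 3 had 0 bp of H3K27me3 in either library. No gene of 78 ribosomal proteins or of 35 respiratory complex I subunits had both marks, with 51 (65.4%) and 24 (68.6%) in the H3K4me3-only class. Of 47 proteasome genes 2 had both (PSMB8 and PSMB11, subunits of the immune and thymus forms) and 31 had H3K4me3 only. Of 20 cumulus and granulosa genes 3 had both (FOXL2, INHA and INHBB), 6 had H3K4me3 only and 8 had neither.

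H3K27me3 was found in neither library at 14 of 17 H3K4 methyltransferase and demethylase genes and at 26 of 31 genes of Polycomb components and H3K27 demethylases, close to the 80.1% of all coding genes. Over all coding genes 42.8% had H3K4me3 only and 9.05% had both marks. Of the 17 H3K4 methyltransferases and demethylases 10 (58.8%) had H3K4me3 only, among them KMT2B, KMT2D and KDM5B, and none had both marks. Of the 31 Polycomb components and H3K27 demethylases 17 (54.8%) had H3K4me3 only and 1 (3.23%) had both (CBX7, a chromobox subunit of Polycomb repressive complex 1). KDM6B, an H3K27 demethylase (chr12:53087072-53108949), had 8285 and 10456 bp of H3K4me3 within 5 kb and no H3K27me3. Among 12 DNA methylation genes, DNMT3A and DNMT3L had both marks (16.7%) and 5 had H3K4me3 only, whose share (41.7%) was near that of all genes. DNMT3L, the cofactor of de novo methylation in germ cells (chr13:207119025-207141990), had 5547 and 6210 bp of H3K4me3 and 12532 and 11746 bp of H3K27me3. The maintenance enzyme DNMT1 had 1798 and 3268 bp of H3K4me3 and no H3K27me3.

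Of 29 matched imprinted genes, which are expressed from the allele of 1 parent, 13 (44.8%) had both marks, 8 (27.6%) had H3K4me3 only, 7 (24.1%) had neither and 1 was undecided. Over all coding genes these shares were 9.05%, 42.8% and 20.6%, so the share with neither mark was near that of all genes. The fetal growth factor gene IGF2 (chr2:1469183-1496417) had 6601 and 9833 bp of H3K4me3 and 16298 and 13437 bp of H3K27me3 within 5 kb. DLK1 (chr7:121565844-121577493), a Notch-like ligand gene, had 4357 and 7394 bp against 15703 and 15374 bp. MEST, PLAGL1, NAP1L5, NDN and DIRAS3 had no peak of either mark within 5 kb in any of the 4 libraries.

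Of 18 genes named in the mouse as imprinted through oocyte H3K27me3, 10 (55.6%) had both marks, 2 (11.1%) had H3K4me3 only (GAB1 and SLC38A1) and 4 (22.2%) had neither. Over all coding genes these shares were 9.05%, 42.8% and 20.6%, so the share with neither mark was again near that of all genes. SFMBT2, a Polycomb-related gene (chr10:63877033-64070867), had 6725 and 7786 bp of H3K4me3 and 16125 and 15164 bp of H3K27me3. HTRA3, a secreted protease gene (chr8:2794780-2819686), had 9330 and 9133 bp against 15026 and 14124 bp. JADE1, a member of the same list, had 0 bp of either mark within 5 kb in all 4 libraries.

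Ranked by bases of a class within 10 kb of their ends, the genes at the head of each class differed in how much they held. The both-mark class included DPYSL4 (chr14:140497457-140511740) with 16321 bp under both marks, SUSD4, SLC12A7, MUC5AC, KNDC1, MROH5 and SLC6A3, a dopamine transporter gene, with 12850 bp. Around DPYSL4, H3K4me3 covered 19022 and 25139 bp and H3K27me3 32242 and 31839 bp of 34284 bp. H3K4me3 only was led by FAM83H with 10699 bp, PDGFRB, the platelet-derived growth factor receptor beta gene, with 10487 bp, and FOXJ1, the regulator of motile cilia, with 9844 bp, and went on with DRC3, UBE2J2, PDGFA, MIDN and CBFA2T3. FOXJ1 (chr12:5307370-5312117) had 12623 and 17610 bp of H3K4me3 and no H3K27me3 within 10 kb. H3K27me3 only was led by CERK, the ceramide kinase gene, with 3628 bp, followed by CYP4A21, EFCAB1, RNASE13, KLHDC7A, MYL3, LRRC38 and SP140, the last with 1625 bp. Of these 8, MYL3, a myosin light chain gene (chr13:29730271-29735616), had the least H3K4me3 within 10 kb, at 0 and 876 bp, against 5394 and 6895 bp of H3K27me3.

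**Figure D3:**
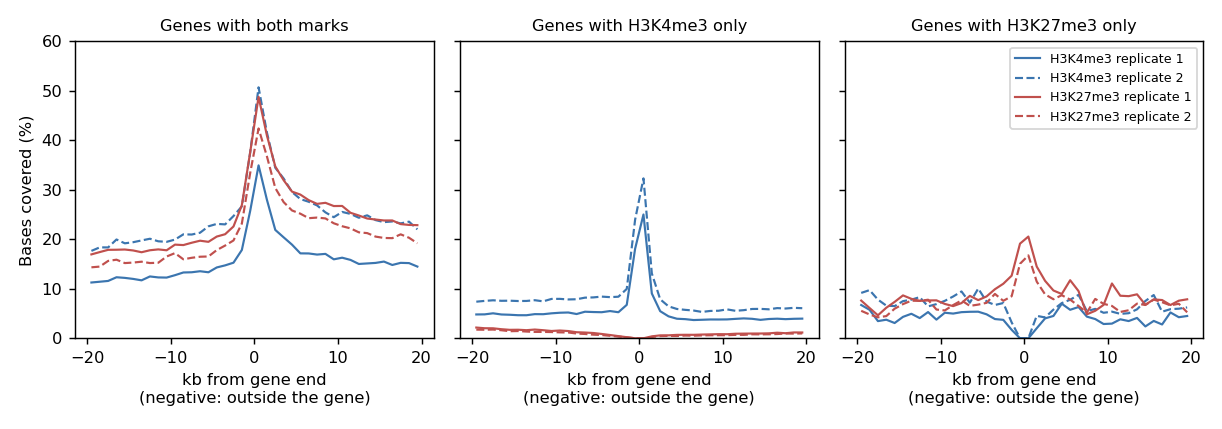
Percent of bases covered by peaks of each library in 1 kb bins up to 20 kb outside (negative) and inside the ends of coding genes, for the genes with both marks (1694), H3K4me3 only (8017) and H3K27me3 only (106). Blue lines are H3K4me3 and red lines H3K27me3, solid for replicate 1 and dashed for replicate 2. The bins within 1 kb of the end are those that chose the genes. Both marks stay raised out to 20 kb in the both-mark genes, and H3K4me3 falls to a low level within a few kb in the H3K4me3-only genes.

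Around the ends of both-mark genes both marks were highest next to the end and reached far. In the first kb inside the gene, a bin that the choice of genes used, H3K4me3 covered 34.9% and 50.7% of bases and H3K27me3 48.8% and 42.4%. In the bin from 19 to 20 kb inside the gene, which the choice did not use, they still covered 14.5% and 22.02%, and 22.9% and 19.2%. At 19 to 20 kb outside, the values were 11.3% and 17.7%, and 17.0% and 14.3%. In H3K4me3-only genes H3K4me3 went from 25.01% and 32.3% in the first kb inside to 9.06% and 13.1% in the second and to 3.97% and 6.08% at 19 to 20 kb. The genome as a whole was covered to 2.69% and 4.30% by H3K4me3 and to 3.04% and 2.64% by H3K27me3.

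To see how the marks lie together, stretches with either mark in both its libraries were joined across gaps of up to 1 kb and kept from 5 kb upward. Of 2147 such stretches 1414 (65.9%) held at least 1 kb under both marks and are called shared domains here. They spanned 15.4 Mb, with a median length of 8808 bp (quartiles 6569 and 12726 bp), and held 52.6% of all length with both marks. All 111 stretches of 20 kb or more were shared domains. A coding gene end lay in 332 of them (23.5%), 508 (35.9%) met a gene without an end and 574 (40.6%) were intergenic. They were most frequent on chromosome 17, with 113 per 100 Mb, and least on chromosome 9, with 28.0.

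Within shared domains H3K27me3 was the larger mark and H3K4me3 lay inside it in pieces. The median domain had H3K27me3 on 85.9% of its length, H3K4me3 on 33.9% and both on 26.4%. H3K27me3 was the longer mark in 1326 domains (93.8%). Of the summed length, 28.7% had both marks, 56.0% H3K27me3 without agreed H3K4me3, 6.98% H3K4me3 without agreed H3K27me3 and 8.39% lay in the joined gaps.

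The 5183 H3K4me3 stretches in these domains had a median of 775 bp, with a median of 3 to a domain. Of them 65.9% lay wholly inside H3K27me3, 25.1% partly and 9.03% apart from it. The 3073 H3K27me3 stretches had a median of 3154 bp, and 5.37% lay wholly inside H3K4me3, 76.5% partly and 18.1% apart. The outermost bases carried H3K27me3 alone at both ends of 703 domains (49.7%), H3K27me3 at an end and H3K4me3 at the opposite end in 537 (38.0%), and H3K4me3 alone at both ends in 165 (11.7%).

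This layout depended on which H3K4me3 library was used. With single libraries of each mark, H3K27me3 covered a median of 72.0% to 86.6% of a shared domain and H3K4me3 39.3% to 58.3%, and H3K27me3 alone held both ends of 26.5% to 46.3% of domains. Without H3K4me3 replicate 1 there were 2627 shared domains, in which H3K27me3 and H3K4me3 covered medians of 69.2% and 63.5%, and H3K27me3 alone held both ends of 19.4%. With −log10 q of 2 or more 25 shared domains were left, with medians of 94.7% and 72.4%.

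**Figure D4:**
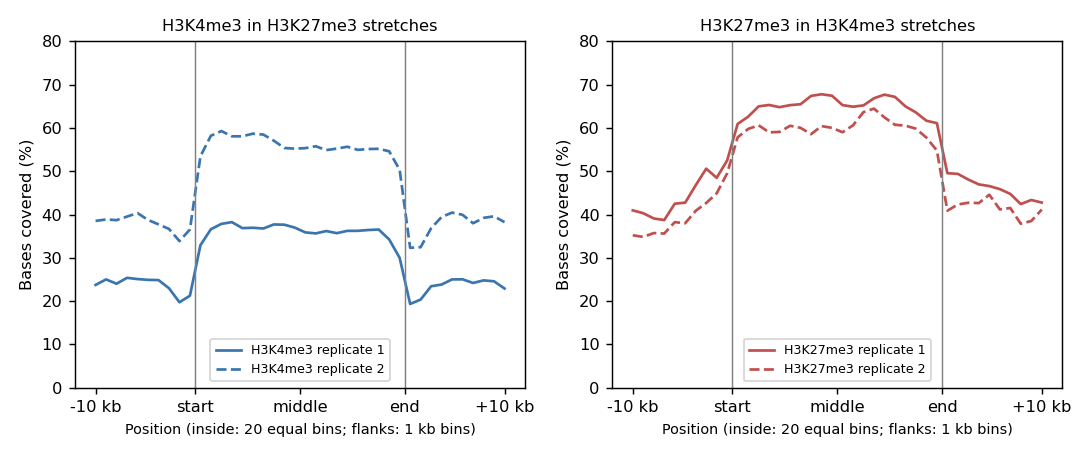
Left, percent of bases covered by H3K4me3 peaks of each library along the 1643 H3K27me3 stretches of 5 kb or more (20 equal bins inside, 1 kb bins up to 10 kb outside). Right, H3K27me3 along the 208 H3K4me3 stretches of 5 kb or more. The stretches have the mark in both its libraries and were joined across gaps of up to 1 kb. Solid lines are replicate 1 and dashed lines replicate 2. Each mark is higher inside the stretches of the other than in the first kb outside, and nearly level from the outer to the central bins.

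Stretches were also chosen on a single mark, without using the other. They come from the same agreed bases as the shared domains, and nesting and end marks were not computed for them. Stretches with H3K27me3 in both libraries were joined across gaps of up to 1 kb and kept from 5 kb upward. These 1643 stretches spanned 15.3 Mb, gaps included, and H3K4me3 covered 36.1% and 55.9% of them in replicates 1 and 2. H3K4me3 was about level inside, at 33.4% and 54.1% in the outer 20% and 36.5% and 55.4% in the central 20%. In the first kb outside it covered 20.3% and 34.4% and in the tenth kb 23.3% and 38.4%, still above the 2.69% and 4.30% of the genome. H3K4me3 was missing from 32 of these stretches in replicate 1 and from 7 in replicate 2.

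The 208 H3K4me3 stretches of at least 5 kb, joined in the same way, spanned 1.39 Mb. H3K27me3 covered 65.0% and 59.99% of them in replicates 1 and 2. It covered 51.0% and 45.2% of the first kb outside and 41.9% and 38.2% of the tenth. H3K27me3 was missing from 24 and 30 of them. So most wide H3K4me3 stretches held H3K27me3, and nearly all wide H3K27me3 stretches held some H3K4me3.

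The longest shared domain lay in HDAC4, a histone deacetylase gene, at chr15:138367233-138448365 (81133 bp) and included an end of the gene. H3K27me3 covered 79331 and 76362 bp of it and H3K4me3 29886 and 50564 bp in replicates 1 and 2. It held 23 agreed H3K4me3 stretches, the longest 1709 bp, of which 20 lay inside H3K27me3, and 9 H3K27me3 stretches, the longest 22900 bp. In PRDM16, a zinc finger regulator of brown fat and blood stem cells, a domain at chr6:64830997-64908604 (77608 bp) held 22 H3K4me3 stretches, 19 of them inside H3K27me3.

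Other long domains covered ends of SLC12A7 and NKD2 (chr16:79356877-79412424) and of RXRA (chr1:273748879-273802704). RXRA encodes a retinoid X receptor, and both marks lay on 43.5% of that domain. An imprinted gene in other mammals, GRB10, held a domain at chr9:136602663-136647383 (44721 bp) with 14 H3K4me3 stretches, 10 of them inside H3K27me3. There H3K4me3 covered 11619 and 27225 bp and H3K27me3 41089 and 40999 bp.

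A few shared domains had another form, in which the marks coincided nearly base for base. At SUSD4 (chr10:19414758-19457252, 42495 bp) a single H3K4me3 stretch of 42386 bp lay in a single H3K27me3 stretch of 42495 bp, and both marks covered 99.7%. Another, at chr10:24930330-24962238 (31909 bp, with ends of CYB5R1), had both marks on 94.8%. Neither place was peculiar to the oocyte or to a mark. In the 24 libraries of both marks from MII oocyte to blastocyst, peaks covered 31132 to 42495 bp of the SUSD4 domain, and a stretch of 22522 bp at chr10:24939632-24962153 was covered to its full length in every library. Bases in peaks of all 24 libraries came to 87.4 kb in 50 stretches. Leaving them out gave 8.30 Mb with both marks and 1410 shared domains, and no change in the 3 gene counts.

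The bases of each class were then followed in the peaks of later stages, again as values per library. Of the bases with both marks in the oocyte, H3K4me3 peaks covered 58.2% and 46.0% in 2-cell embryos, 40.5% and 23.3% in 4-cell embryos, 17.9% and 26.5% in 8-cell embryos, 14.7% and 16.8% in morulae and 19.1% and 19.50% in blastocysts. H3K27me3 peaks covered 2.42% and 2.12% of them in 2-cell embryos, where the libraries of that mark covered 0.0872% and 0.0553% of the genome in all. In blastocysts H3K27me3 covered 29.0% and 36.8% of the both-mark bases, against 3.43% and 4.33% of the genome.

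The single-mark classes ran otherwise. H3K4me3 covered 56.6% and 52.0% of the oocyte's H3K4me3-only bases in 2-cell embryos and 41.6% and 41.9% in blastocysts, where H3K27me3 had 10.8% and 14.0% of them. Of the H3K27me3-only bases, blastocyst H3K27me3 covered 17.4% and 22.6%, and H3K4me3 covered 24.6% and 17.7% in 2-cell embryos and 7.01% and 7.23% in blastocysts. The blastocyst libraries of H3K27me3 thus covered the largest share of the both-mark bases and the smallest share of the H3K4me3-only bases. These shares were not tested, since the libraries covered unequal lengths and read totals are unknown.

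**Figure D5:**
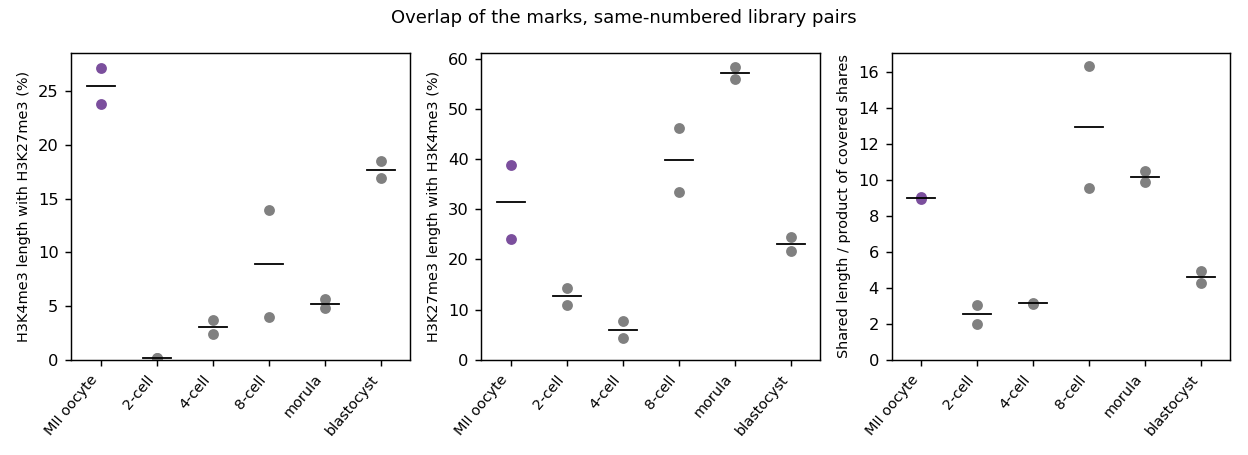
Share of the H3K4me3 length that had H3K27me3 (left, percent), share of the H3K27me3 length that had H3K4me3 (middle, percent) and shared length divided by the product of the covered shares (right) in same-numbered library pairs. Each point is 1 pair, each bar the mean of the 2 pairs of a stage, and MII oocytes are purple. The MII pairs are the highest on the left and lie within the range of the other stages in the other panels.

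A larger share of the H3K4me3 length lay under H3K27me3 in MII oocytes than at other stages, but this did not pass after adjustment. The same-numbered pairs of MII libraries had 27.2% and 23.8%, above the 10 pairs of the other 5 stages, which ran from 0.169% (2-cell) to 18.5% (blastocyst). The difference of 18.5 percentage points gave p = 0.0152 in an exact permutation test (two-sided) over the 66 ways to take 2 of 12 pairs, the smallest p it can give, and an adjusted p of 0.0606 over 4 measures. With 1 mean per stage p was 0.167 (exact permutation, adjusted p = 0.667), again the smallest possible. The extent of H3K27me3 moved with it, from 3.04% and 2.64% of the genome in MII oocytes and 3.43% and 4.33% in blastocysts to between 0.0553% and 1.46% at the stages between, and its part in the result was not tested.

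The other 3 measures lay within the range of the other stages. The share of H3K27me3 length with H3K4me3 was 24.1% and 38.9% in MII oocytes against 4.24% to 58.5%, highest in morulae (exact permutation p = 0.848, adjusted p = 0.848). The shared length was 8.93 and 9.05 times the product in MII oocytes against 1.97 to 16.3 times (log2 difference 0.74, exact permutation p = 0.394, adjusted p = 0.788). Of genes with H3K27me3, 75.8% and 89.0% had H3K4me3 in MII oocytes against 56.3% to 92.5% (exact permutation p = 0.591, adjusted p = 0.788). With −log10 q of 2 or more the MII oocytes were lower in that gene share by 44.6 points (exact permutation p = 0.0152, adjusted p = 0.0303). They were higher in the share of H3K4me3 length by 20.1 points with the same p-values. These tests counted the 2 pairs of a stage as separate, and no test on stage means was run at this limit. The MII gene shares were 5.39% and 47.5%, the latter beside 48.8% in 4-cell pair 2. The 2-cell shares rested on 16 and 8 H3K27me3 genes.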

How the data were processed

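Peak positions were taken from the authors' deposited broad peak lists, made per library with Bowtie2 2.4.1, MACS2 and the build susScr11, per the submitters' processing notes; the sources used here name no call settings and no control. The deposited fold enrichment is a linear ratio, and the deposited −log10 p and −log10 q values are the caller's. Read totals are unknown, so no counting interval could be given.

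Intervals were merged per library and combined with numpy 2.4.6 and pandas 2.3.3 under Python 3.11.15, and the interval code was tested on simulated data. Gene ends came from the RefSeq table of Sscrofa11.1, the assembly that susScr11 names: 18722 coding genes on chromosomes 1 to 18, with 538 of 564 listed symbols matched. "Within 5 kb" and "within 10 kb" count bases near either end, overlapping windows merged. The genome length used, 2265.6 Mb, runs to the last gene or peak of each chromosome. Exact permutation tests used scipy 1.17.1, with Benjamini-Hochberg adjustment. The 8 genes named per class had the most bases of the class within 10 kb, 1 per 100 kb, symbols starting with LOC left out; list members were taken as examples, and 1 gene chosen by this rule is not reported here. The members and lists were chosen with earlier results of these data known. Promoter sequence was not analysed here. Alternatives changed the q limit, libraries, joining, windows, domain rules and pairing.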

Additional observations from a re-analysis of the deposited data

How the results depend on the processing

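At a −log10 q of 2 or more, both marks covered 0.241 Mb and H3K4me3 only 0.336 Mb, with 36, 280 and 494 genes (both, H3K4me3 only, H3K27me3 only), 25 shared domains, median shares of 94.7% (H3K27me3) and 72.4% (H3K4me3), H3K27me3 at both ends of 64% and a log2 length difference of -2.39. At 3 or more these were 0.161 and 0.0220 Mb, with 6.60 Mb of H3K27me3 only, 3, 4 and 289 genes, 12 domains, 97.5%, 88.9% and -4.77.

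Leaving out 1 library gave 9.88 to 18.7 Mb with both marks, 20.5 to 66.9 Mb with H3K4me3 only and 18.4 to 37.2 Mb with H3K27me3 only. The gene counts ran from 1735 to 2227, 8434 to 10546 and 147 to 385, since 1 library replaces the agreement of 2. The log2 length difference ran from -0.072 to 0.60. Shared domains numbered 1736 to 2627, with median shares of 69.2% to 91.4% (H3K27me3) and 30.0% to 63.5% (H3K4me3) and H3K27me3 alone at both ends of 19.4% to 57.8%. The wide and distal shares stayed lower for H3K4me3 under all alternatives run.

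Joining peaks under 1 kb apart raised the H3K27me3 share of domains to 94.3%. With 50% of a window covered the gene counts were 357, 2016 and 172. Joining gaps of up to 3 kb gave an H3K27me3 share of 58.3% and H3K27me3 at both ends of 36.8%, and domains of 10 kb or more numbered 573. Of the stage differences at −log10 q of 2 or more, the share of H3K27me3 length with H3K4me3 was -28.7 points, that of H3K27me3 genes -44.6 and that of H3K4me3 length 20.1 (exact permutation, adjusted p = 0.141, 0.0303 and 0.0303). These p-values counted the 2 pairs of a stage as separate. Without the 2-cell stage the share of H3K27me3 length was -0.0630. Elsewhere the cause was not tested.

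Same-numbered libraries of the marks shared only a number: their deviations correlated at -0.435 over 22665 bins of 100 kb. With a replicate block (exact sign-flip permutation) the differences stayed at 0.27 (log2 length), -22.8 and -14.8 points, and p was 1 for length and 0.5 for the wide and distal shares, so no call changed. Crossing the numbers, chosen after seeing the data, gave 0.5 for all 3 and no calls. Counting from transcription starts only was not run, since the gene table gives no strand. Leaving out bases in peaks of all 24 libraries was also chosen after seeing the data.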
